A study of Mus musculus with 4 samples.

Results

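The 47 genes described here build the machinery by which proteins enter the endoplasmic reticulum (ER), are trimmed, glycosylated and folded there, and are sent for degradation when they misfold, together with 3 regulators of the ER stress response. They were taken as a fixed list of gene symbols from the 49490 genes of a bulk RNA-seq table, and all 47 were found and passed the filter on low values. The table holds 4 libraries of polyA RNA from mouse CD8+ T cells of spleens and lymph nodes. In the design text of the study these cells were activated in culture, and the aim was to list genes under the control of IRF8, an interferon regulatory factor known for its role in dendritic cell and B cell development. By that text, the label Irf8 knockout (2 libraries) stands for Irf8-/- cells and the label WT (2 libraries) for cells with the floxed allele, Irf8fl/fl. The sources used here do not give the driver of any Cre, the age and strain of the mice or the number of animals behind each library. Nothing in the labels says that the 2 libraries of a group were separate mice or cultures, so the p-values measure a spread between libraries that could be purely technical.

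Secreted and membrane proteins enter the ER through the Sec61 channel, lose their signal peptide to signal peptidase and receive N-linked sugars from oligosaccharyltransferase. Chaperones and protein disulfide isomerases then fold them, and proteins that fail are pulled back into the cytosol for degradation. When unfolded proteins build up, the sensors Ire1 (gene Ern1), ATF6 and PERK start the unfolded protein response: Ire1 splices Xbp1 mRNA, ATF6 is cut to release a transcription factor, and PERK slows translation. In lymphocytes this response is best known from plasma cells, which need Xbp1 to secrete antibody, and in dendritic cells from the dependence of some subsets on Xbp1.

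The level of the targeted gene went against the labels. Irf8 itself had normalized counts of 89508 and 90222 in the libraries labelled knockout, against 6364 and 6081 in the libraries labelled WT, which is 14.4-fold higher (log2 fold change 3.85, SE 0.035, adjusted p = 4.32e-08 by limma). Since the targeted gene goes against its label, the groups are called by their labels throughout, and every direction below rests on them. Whether labels or columns were exchanged, or libraries mixed, was not tested, and an exchange would turn every direction given here. Depth was even, at 59091255 and 59489280 reads in the libraries labelled knockout and 58899365 and 59724952 in those labelled WT.

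Markers of the labelled cell type were high in all 4 libraries, led by the T cell receptor constant genes Trbc2 and Trac, but other cell types were marked as well. Of 13 T cell markers, 12 were lower in the libraries labelled knockout, with summed normalized counts of 550715 and 556672 there and 745551 and 748770 in those labelled WT. All 13 markers of plasmacytoid dendritic cells were higher, with sums of 295240 and 294441 in the libraries labelled knockout and 18054 and 17983 in those labelled WT. Their defining gene Siglech stood at 84171 and 84408 in the libraries labelled knockout, against 210 and 194 in those labelled WT. Of 12 conventional dendritic cell markers, 11 were higher, with sums of 444157 and 449153 in the libraries labelled knockout and 39810 and 40667 in those labelled WT. Most of these sums came from Cd74, H2-Aa and H2-Ab1, with Cd74 at 259709 and 258799 in the libraries labelled knockout, against 15709 and 16684 in those labelled WT. Xcr1 was the marker not called (log2 fold change 0.02). Itgax rose by only 0.13, and was called lower, at -0.17, when every library was set to the same median log2 value. Plasma cell markers had sums of 52132 and 51775 in the libraries labelled knockout and 15147 and 14419 in those labelled WT. Ighm alone of these markers had 37152 and 37002 in the libraries labelled knockout, against 7600 and 7238 in those labelled WT. Within that list 5 of 8 tested genes were higher and 1 lower, while Tnfrsf17, Ighg1 and Igha were at 0 in all libraries. B cell marker sums were 1448 and 1441 in the libraries labelled knockout and 312 and 293 in those labelled WT, with 3 of 8 tested genes higher and none lower, and Ebf1 at 0 in both libraries labelled WT. Cd79b alone had 1112 and 1113 in the libraries labelled knockout, against 138 and 134 in those labelled WT. The neutrophil list had sums of 3119 and 3220 in the libraries labelled knockout and 133 and 171 in those labelled WT; 9 of 9 tested genes were higher, and Mpo, Elane and Camp were at 0 in both libraries labelled WT. For macrophages, 1 of 11 tested genes was higher and 7 were lower, with sums of 22513 and 22024 in the libraries labelled knockout, 17747 and 19334 in those labelled WT, and Vsig4 at 0 throughout. The macrophage marker that rose, Cd68, had 11390 and 10918 in the libraries labelled knockout, against 1687 and 1947 in those labelled WT. The part of these other cell types in the ER gene results was not tested. In bulk RNA, fewer cells of a type and less RNA per cell cannot be told apart.

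Most of the ER genes were somewhat more abundant in the libraries labelled knockout. Of the 47, 36 were higher, 1 (Dad1) was lower and 10 were not called (limma, Benjamini-Hochberg adjusted p under 0.05, two-sided). The background was 19.9% of all 18378 tested genes called higher and 13.4% called lower, and among the 7739 genes with a mean of at least 1000 normalized counts, an abundance that most of the list shares, it was 21.8% higher and 24.1% lower. Their median log2 fold change, libraries labelled knockout over libraries labelled WT, was 0.33 (range -0.37 to 1.74), against 0.02 for all tested genes and -0.03 for the abundant ones. In 39 genes both libraries labelled knockout lay above both labelled WT, beside 36.5% of all tested genes, and in 2 they lay below, beside 32.3%.

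Herpud1, Xbp1 and Edem2 were the 3 of the 47 that changed more than 2-fold. Among all 18378 tested genes, 1933 were called higher with a rise above 2-fold. Of the 36 members that rose, 25 did so by 1.5-fold or less. Because the changes are small, they depend on where zero is placed. Setting every library to the same median log2 value moved the median of all genes by -0.30, and on that scale 15 of the 47 were higher and 9 lower, against 13.0% and 39.2% of all tested genes and 10.4% and 67.2% of the abundant ones. The list's median became 0.034 and that of all genes -0.28. Higher on all 5 scalings tried were 15 genes: Ssr1, Ssr3, Spcs3, Sec11c, Stt3a, Stt3b, Hsp90b1, Hyou1, Manf, Creld2, Pdia6, Herpud1, Edem2, Xbp1 and Atf6. They are the same 15 that were higher with median centring, so the other scalings narrowed the set no further. The share of all tested genes higher on all 5 was not counted. Dad1 was lower on all 5. On the other 3, edgeR with TMM called 36 of the 47 higher and 1 lower, beside 20.1% and 14.4% of all tested genes, edgeR with upper-quartile scaling 31 and 3, beside 17.7% and 19.9%, and DESeq2 35 and 1, beside 19.0% and 13.9%.

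As a share of all reads, the 47 genes took 0.851% and 0.860% in the libraries labelled knockout, against 0.651% and 0.656% in those labelled WT, a ratio of 1.31. Without Herpud1, Xbp1 and Edem2 the ratio was 1.25. By role it was 2.30 for the stress regulators, 1.67 for degradation, 1.33 for folding, 1.25 for signal peptidase, 1.21 for entry and 1.16 for glycosylation. These sums give most weight to abundant genes, and medians per gene gave another order. Median log2 fold changes were 0.54 for the stress regulators, 0.38 for folding and 0.34 for signal peptidase. For entry and glycosylation they were 0.30, and for degradation the median was lowest, at 0.21.

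**Figure D1:**
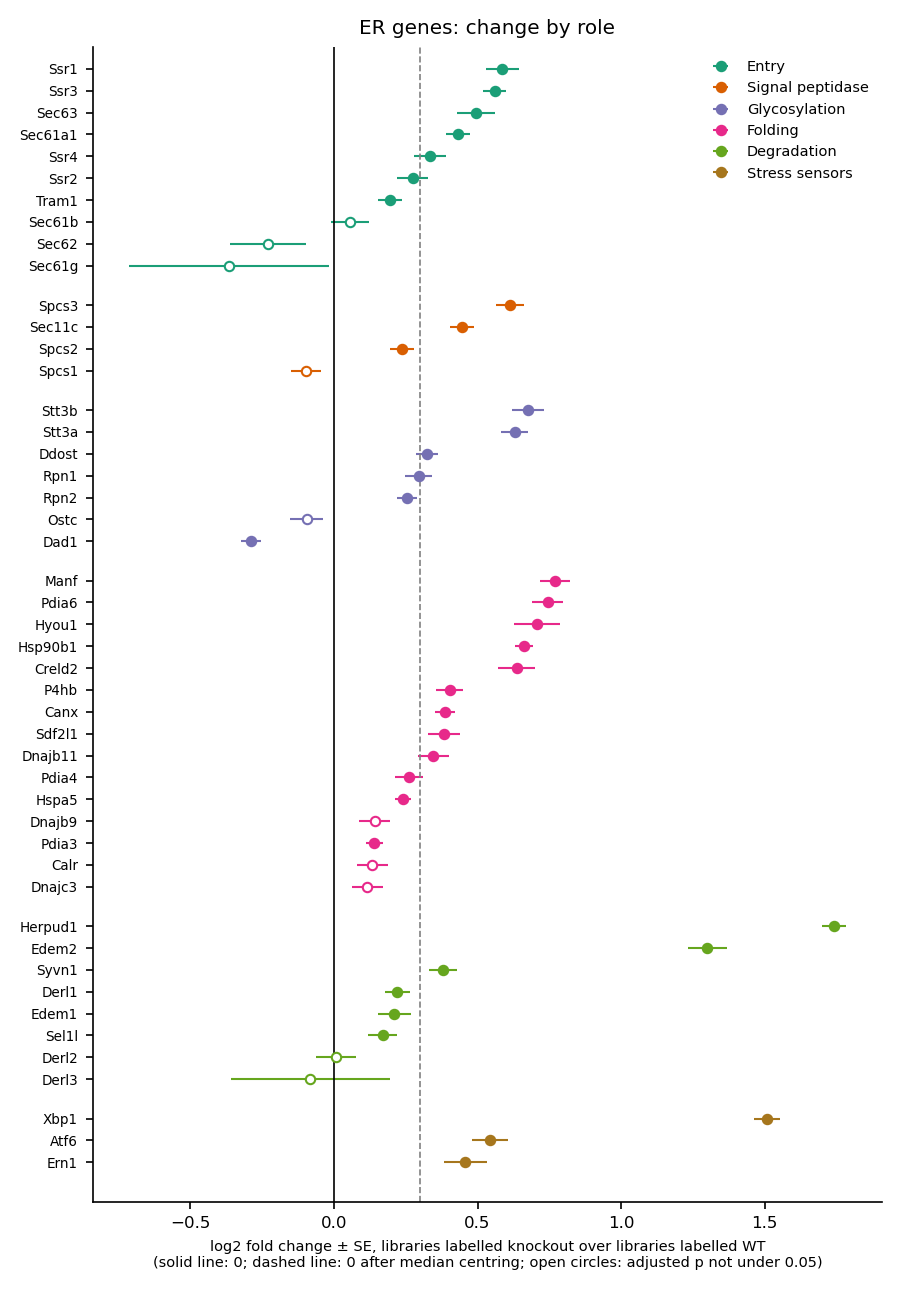
Log2 fold change (x axis, libraries labelled knockout over libraries labelled WT) with its standard error for each of the 47 ER genes (y axis), coloured by role; filled circles passed the test and open circles did not, the solid line marks 0 and the dashed line the value that becomes 0 after median centring. The 36 filled circles of genes that rose lie right of 0, Dad1 lies left of it, and Herpud1, Xbp1 and Edem2 stand apart at 1.74, 1.51 and 1.30.

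The 3 stress regulators all rose, beside 19.9% of all tested genes, and Xbp1 rose most. Xbp1, whose spliced mRNA encodes the transcription factor of the Ire1 arm (chr11:5520659-5525893, plus strand, GRCm38), had normalized counts of 14293 and 14883 in the libraries labelled knockout, against 5243 and 5014 in those labelled WT. That is 2.84-fold higher (log2 fold change 1.51, SE 0.04, adjusted p = 3.13e-06 by limma), larger than 89.9% of all tested genes. The counts are per gene, so spliced and unspliced Xbp1 cannot be told apart and no statement on splicing can be made. Ern1, which encodes the Ire1 sensor and nuclease, had 1513 and 1457 in the libraries labelled knockout, against 1102 and 1061 in those labelled WT (1.37-fold, log2 fold change 0.46, SE 0.07, adjusted p = 0.00463 by limma). Atf6, the sensor that becomes a transcription factor, had 4570 and 4776 in the libraries labelled knockout, against 3063 and 3353 in those labelled WT (1.46-fold, log2 fold change 0.54, SE 0.06, adjusted p = 0.00107 by limma). In none of the 3 did the groups overlap, while 36.5% of all tested genes had both libraries labelled knockout above both labelled WT. With median centring the value of Ern1 was 0.16 and no longer passed.

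Per kilobase of 1 annotated principal transcript, mean normalized counts of these regulators differed widely. Xbp1 stood at 6852 in the libraries labelled knockout and 2409 in those labelled WT. For Atf6 the levels were 645 in the libraries labelled knockout and 443 in those labelled WT, and for Ern1 they were 214 in the libraries labelled knockout and 156 in those labelled WT. Such levels depend on the transcript chosen for the length.

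Several members are textbook targets of ATF6 and XBP1, which bind short promoter elements, so the promoter sequences of the list were searched. RefSeq promoter windows (GRCm38.p6, 250 bases before to 50 after the gene start) were at hand for 37 of the 47. Ostc, Atf6, Spcs3, Derl1, Sec61a1, Tram1, Manf, Hyou1, Sec11c and Ssr2 were not searched. The ER stress element, searched on both strands as CCAAT, any 9 bases and CCACG, was found in 9 of the 37 (24.3%) and in 37 of all 27025 genes with a window (0.137%). The second ER stress element, searched as ATTGG, any base and CCACG, was found in Herpud1 and Dnajb11, 5.41% of the 37, and in 12 of the 27025 (0.044%). No gene of the list held both elements, and no 2 matches of them overlapped. These shares describe how the list was put together, since it holds well-known stress genes. Each match is printed below 5′ to 3′ on the strand of the motif, with the fixed bases of the element in capitals, because these are the letters the members share.
Herpud1, second element: ATTGGgCCACG
Dnajb11, second element: ATTGGcCCACG
Hsp90b1, far match: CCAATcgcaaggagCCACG
Hsp90b1, near match: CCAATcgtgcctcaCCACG
Hspa5: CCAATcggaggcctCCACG
Pdia6: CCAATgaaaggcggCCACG
Creld2: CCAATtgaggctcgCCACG
Canx: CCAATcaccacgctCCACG
Syvn1: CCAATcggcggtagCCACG
Calr: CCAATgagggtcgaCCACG
Dnajc3: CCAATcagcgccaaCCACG
Derl3: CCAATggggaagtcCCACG

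The matches lay at different distances from the start. In Herpud1 the element ran from 52 to 42 bases before it, in Hspa5 from 65 to 47, in Syvn1 from 44 to 26 and in Pdia6 from 98 to 80. Hsp90b1 had 2 matches, from 212 to 194 and, on the opposite strand, from 107 to 89. The match of Dnajb11 alone lay after the start. Shown next are the 250 bases before the start of 3 genes: the member with the largest change, the chaperone with the pair of matches, and the master chaperone. They are written 5′ to 3′ on the strand of the gene with the elements in capitals, and an element on the opposite strand appears as its reverse complement. The Herpud1 window is chr8:94386179-94386428 (plus strand), the Hsp90b1 window chr10:86705445-86705694 (minus strand) and the Hspa5 window chr2:34771840-34772089 (plus strand); in Hspa5 the earlier capitals mark TGACGTG, a core to which ATF6 and XBP1 bind.
Herpud1: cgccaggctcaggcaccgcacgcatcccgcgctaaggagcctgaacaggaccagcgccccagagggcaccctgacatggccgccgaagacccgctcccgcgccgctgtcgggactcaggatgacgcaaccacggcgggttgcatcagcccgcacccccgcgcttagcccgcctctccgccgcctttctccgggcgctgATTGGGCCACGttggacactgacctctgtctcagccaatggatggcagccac
Hsp90b1: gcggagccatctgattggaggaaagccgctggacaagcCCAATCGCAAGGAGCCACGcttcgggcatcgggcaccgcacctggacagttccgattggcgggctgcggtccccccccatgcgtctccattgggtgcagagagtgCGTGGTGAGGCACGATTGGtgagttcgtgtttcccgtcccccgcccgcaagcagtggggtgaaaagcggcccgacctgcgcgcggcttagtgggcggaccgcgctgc
Hspa5: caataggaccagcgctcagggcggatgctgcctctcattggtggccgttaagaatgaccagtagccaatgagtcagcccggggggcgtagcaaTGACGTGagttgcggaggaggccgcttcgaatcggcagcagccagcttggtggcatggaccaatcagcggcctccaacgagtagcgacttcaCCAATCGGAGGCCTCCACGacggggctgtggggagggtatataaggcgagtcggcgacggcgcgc

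Members with and without the ER stress element overlapped in their changes. Of the 9 with it, 6 were called higher (median log2 fold change 0.38), and of the 28 without it 21 were (median 0.31). The share of all tested genes called higher was 19.9%. The 28 include Herpud1 and Dnajb11, which hold the second element. The 9 ranged from -0.08 in Derl3 to 0.74 in Pdia6. TGACGTG was found in Hspa5 only, 2.70% of the 37, against 2.22% of all genes with a window and 3.17% of the tested ones. The cyclic AMP element TGACGTCA was found in none of the 37, against 2.03% and 3.44%. Xbp1 and Edem2, whose changes came next after that of Herpud1, held neither stress element in the window. A match is a description of letters and no match says only that they are not in this window.

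**Figure D2:**
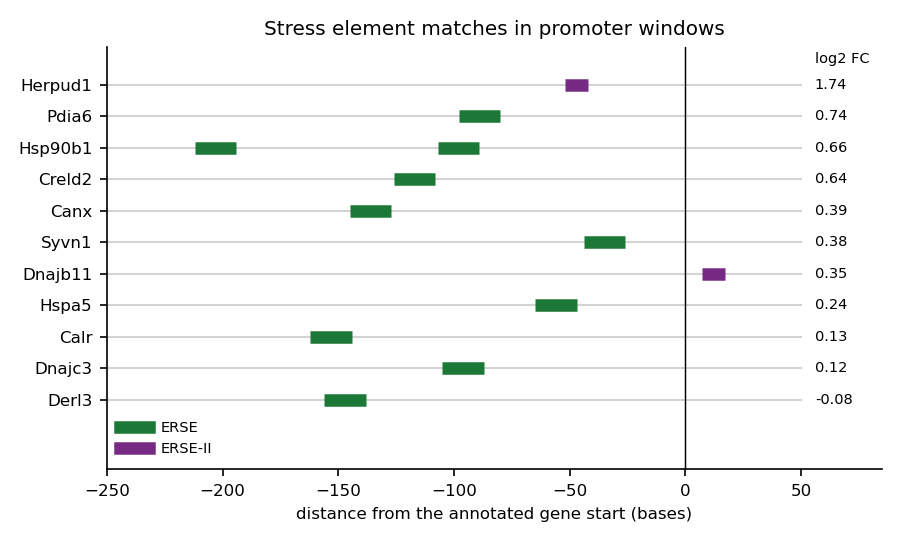
Position of each stress element match (bars) in the promoter windows of 11 ER genes, as distance in bases from the annotated gene start (x axis, vertical line at 0), with genes down the page ordered by log2 fold change, libraries labelled knockout over libraries labelled WT, printed at the right. The second element is found in Herpud1, at 1.74, and Dnajb11, at 0.35, and the first in genes from Pdia6 at 0.74 to Derl3 at -0.08.

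Among the 15 folding genes 12 rose and none fell, with a median log2 fold change of 0.38, beside 19.9% and 13.4% of all tested genes. With median centring 5 were higher and 3 (Calr, Dnajc3 and Pdia3) lower, with a median of 0.08, beside 13.0% and 39.2%. The largest rises were those of Manf, Pdia6, Hyou1 and Hsp90b1, at about 1.6 to 1.7-fold. Manf, a secreted stress-induced protein that binds BiP, had normalized counts of 6147 and 6571 in the libraries labelled knockout, against 3678 and 3777 in those labelled WT (1.71-fold, log2 fold change 0.77, SE 0.05, adjusted p = 1.11e-04 by limma). Pdia6, a disulfide isomerase that also acts on Ire1, had 9800 and 10374 in the libraries labelled knockout, against 6254 and 5791 in those labelled WT (1.67-fold, log2 fold change 0.74, SE 0.05, adjusted p = 1.50e-04 by limma). Hyou1, the large ER chaperone that exchanges nucleotide on BiP, had 6320 and 6014 in the libraries labelled knockout, against 3497 and 4085 in those labelled WT (1.63-fold, log2 fold change 0.71, SE 0.08, adjusted p = 9.89e-04 by limma). Hsp90b1 encodes GRP94, the HSP90 of the ER, which folds Toll-like receptors and integrins. Its counts were 26378 and 26884 in the libraries labelled knockout, against 16793 and 16854 in those labelled WT (1.58-fold, log2 fold change 0.66, SE 0.03, adjusted p = 2.17e-05 by limma). In each of these 4 the groups lay far apart relative to the spread within them.

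Hspa5, the gene of BiP, is the chaperone that holds the stress sensors inactive and the usual readout of ER stress. It had normalized counts of 41257 and 41811 in the libraries labelled knockout, against 35162 and 35132 in those labelled WT. The groups did not overlap, but the rise was 1.18-fold (log2 fold change 0.24, SE 0.03, adjusted p = 0.00104 by limma), and with median centring it turned to -0.06. Hspa5 was the most abundant folding gene per kilobase, at a mean of 15895 normalized counts in the libraries labelled knockout and 13451 in those labelled WT.

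The calnexin cycle was uneven. Canx, the membrane-bound lectin chaperone of this cycle, had normalized counts of 19285 and 18916 in the libraries labelled knockout, against 14845 and 14393 in those labelled WT (log2 fold change 0.39), and rose, though with median centring it was at 0.09 and did not pass. Calr, its soluble relative, had 16993 and 18025 in the libraries labelled knockout, against 15258 and 16675 in those labelled WT (log2 fold change 0.13, adjusted p = 0.107 by limma), and with median centring it was called lower, at -0.17. Pdia3, the isomerase that works with both, had a log2 fold change of 0.14 that passed the test, did not pass without either library labelled knockout, and was -0.16, passing as lower, with median centring. The difference between Canx and Calr was not tested.

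The remaining folding genes lay between these. P4hb (protein disulfide isomerase), Sdf2l1 (a partner of ER DnaJ proteins), Dnajb11 (a DnaJ co-chaperone of BiP) and Creld2 (a stress-induced ER protein) rose, with log2 fold changes of 0.40, 0.38, 0.35 and 0.64. After median centring P4hb, Sdf2l1 and Dnajb11 were at 0.10, 0.08 and 0.05 and did not pass, while Creld2 passed at 0.34. Pdia4, another isomerase, rose by 0.26 and turned to -0.04 with median centring. Dnajb9, a co-chaperone of BiP and a widely used XBP1 target, had 2954 and 2981 in the libraries labelled knockout, against 2744 and 2639 in those labelled WT, a log2 fold change of 0.14 that did not pass (adjusted p = 0.0983 by limma). Dnajc3, an inhibitor of PERK and co-chaperone of BiP, was at 0.12 and did not pass (adjusted p = 0.161 by limma).

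**Figure D3:**
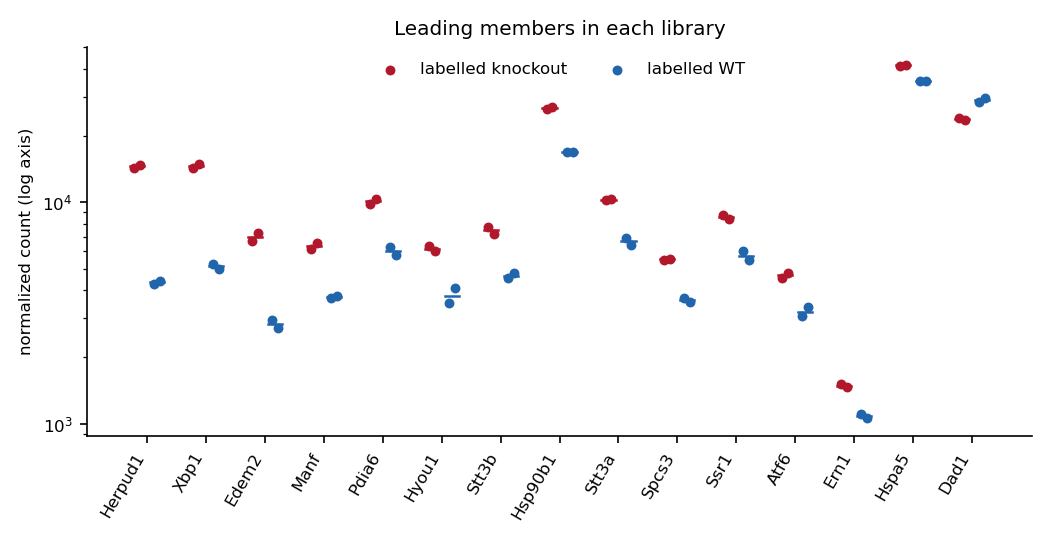
Normalized counts (y axis, log scale) of 15 ER genes in each library, with the 2 libraries labelled knockout left of the 2 labelled WT for every gene and a short line at each group's mean. Herpud1, with 14325 and 14722 against 4269 and 4414, shows the widest gap, Hspa5 a narrow one, and Dad1 is the gene with the libraries labelled knockout below.

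Degradation held the largest change of the list. Of its 8 genes 6 rose and none fell, beside 19.9% and 13.4% of all tested genes, with a median log2 fold change of 0.21. Median centring gave 2 higher and 1 lower, beside 13.0% and 39.2%, with a median of -0.09. Herpud1, a membrane protein that organizes the degradation complex and a classic stress-induced gene (chr8:94386438-94395377, plus strand, GRCm38), had normalized counts of 14325 and 14722 in the libraries labelled knockout, against 4269 and 4414 in those labelled WT. It was 3.35-fold higher (log2 fold change 1.74, SE 0.04, adjusted p = 1.34e-06 by limma), larger than 91.0% of all tested genes. Edem2, which starts mannose trimming of misfolded glycoproteins (chr2:155701677-155729475, minus strand, GRCm38), had 6654 and 7270 in the libraries labelled knockout, against 2943 and 2709 in those labelled WT. It was 2.46-fold higher (log2 fold change 1.30, SE 0.07, adjusted p = 3.26e-05 by limma). Both stayed higher in each of the 14 alternative settings.

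The ubiquitin ligase at the centre of this pathway moved less. Syvn1, the ligase HRD1, had 4234 and 4238 in the libraries labelled knockout, against 3295 and 3221 in those labelled WT (1.30-fold, log2 fold change 0.38, SE 0.05, adjusted p = 0.00170 by limma), and with median centring it was at 0.08 and did not pass. Its partner Sel1l rose by 0.17 and Edem1, a relative of Edem2, by 0.21, on the log2 scale, and both turned negative with median centring, to -0.13 and -0.09. Neither passed with no filter, with upper-quartile scaling, or without WT replicate 1 or knockout-labelled replicate 1. So within the EDEM pair the values were 1.30 for Edem2 and 0.21 for Edem1, a contrast that was not tested.

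The derlins, membrane proteins of the retrotranslocation channel, differed mainly in level. Derl1 had normalized counts of 8568 and 8662 in the libraries labelled knockout, against 7615 and 7177 in those labelled WT (1.16-fold, log2 fold change 0.22, adjusted p = 0.0114 by limma). It was at -0.08 with median centring and did not pass without either library labelled knockout. Derl2 was at 1810 and 1973 in the libraries labelled knockout and 1877 and 1887 in those labelled WT, and Derl3 at 51.0 and 51.6 in the libraries labelled knockout and 49.9 and 59.2 in those labelled WT. For Derl2 and Derl3 the groups overlapped, but with median centring Derl2 was called lower, at -0.29. Per kilobase, the means of Derl1, Derl2 and Derl3 were 2713, 516 and 38.8 in the libraries labelled knockout and 2329, 513 and 41.3 in those labelled WT, which makes Derl3, known for its role in secretory cells, the least abundant gene of the list.

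Of the 10 entry genes 7 rose and none fell, beside 19.9% and 13.4% of all tested genes, with a median log2 fold change of 0.30. With median centring 2 were higher and 2 (Sec61b and Sec62) lower, beside 13.0% and 39.2%, with a median of 0.0038. The translocon-associated protein complex, which sits beside the channel and helps some signal peptides engage it, had 4 of 4 listed genes higher: Ssr1, Ssr2, Ssr3 and Ssr4 had log2 fold changes of 0.59, 0.27, 0.56 and 0.33. After median centring Ssr2 (-0.03) and Ssr4 (0.03) did not pass, and Ssr2 did not pass without knockout-labelled replicate 2. Ssr1 had normalized counts of 8794 and 8397 in the libraries labelled knockout, against 6001 and 5465 in those labelled WT (SE 0.06, adjusted p = 5.44e-04 by limma). Ssr3 had 10590 and 10317 in the libraries labelled knockout, against 7157 and 7033 in those labelled WT (1.47-fold, SE 0.04, adjusted p = 1.22e-04 by limma).

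Within the Sec61 channel the pore subunit rose and its small partners were not called, a contrast that was not tested. Sec61a1, the pore, had 20961 and 21256 in the libraries labelled knockout, against 16190 and 15135 in those labelled WT (1.35-fold, log2 fold change 0.43, SE 0.04, adjusted p = 5.11e-04 by limma), and at 0.13 after median centring it did not pass. Sec61b had 10870 and 10281 in the libraries labelled knockout, against 9544 and 10835 in those labelled WT, and the groups overlapped (adjusted p = 0.564 by limma); after median centring it was called lower, at -0.24. Sec61g had 11273 and 10885 in the libraries labelled knockout, against 10707 and 19047 in those labelled WT. The value of 19047 sets it apart: without WT replicate 1 the log2 fold change was -0.78 and called lower, and without WT replicate 2 it was 0.05.

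The factors of post-translational entry gave unlike values. Sec63, which brings BiP to the channel, had 3090 and 3230 in the libraries labelled knockout, against 2336 and 2148 in those labelled WT (1.41-fold, log2 fold change 0.50, SE 0.07, adjusted p = 0.00200 by limma). After median centring Sec63 was at 0.20 and did not pass. Sec62, its partner and a receptor for ER autophagy, had 2924 and 3053 in the libraries labelled knockout, against 3021 and 4059 in those labelled WT, and did not pass (log2 fold change -0.23, adjusted p = 0.237 by limma). Without WT replicate 1 it was called lower at -0.44. Tram1, a membrane protein that helps nascent chains enter, rose by 0.20 on the log2 scale and was at -0.10 after median centring.

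Signal peptidase, which cuts off signal peptides, had 3 of 4 genes higher and none lower, beside 19.9% and 13.4% of all tested genes. Median centring gave 2 higher and 1 lower, beside 13.0% and 39.2%. Spcs3, an accessory subunit needed for activity, had normalized counts of 5463 and 5570 in the libraries labelled knockout, against 3680 and 3532 in those labelled WT (1.53-fold, log2 fold change 0.61, SE 0.05, adjusted p = 2.11e-04 by limma). Sec11c, one of the catalytic subunits, had 7783 and 7877 in the libraries labelled knockout, against 5857 and 5639 in those labelled WT (1.36-fold, log2 fold change 0.45, SE 0.04, adjusted p = 4.76e-04 by limma). Its paralog Sec11a, which is not in the list of 47, went the other way: 5777 and 5880 in the libraries labelled knockout, against 6768 and 7276 in those labelled WT (log2 fold change -0.27, adjusted p = 0.00829 by limma). Spcs2 had 9299 and 9627 in the libraries labelled knockout, against 8176 and 7893 in those labelled WT; it rose by 0.24 on the log2 scale and was at -0.06 after median centring. Spcs1 was not called, at -0.10, but was called lower with median centring (-0.40) and with upper-quartile scaling (-0.18).

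Oligosaccharyltransferase, which transfers N-linked sugars to asparagine, had 5 of 7 genes higher and 1 lower, beside 19.9% and 13.4% of all tested genes. Median centring gave 2 higher and 2 lower, beside 13.0% and 39.2%. Both catalytic subunits rose. Stt3a, which acts during translocation, had normalized counts of 10271 and 10297 in the libraries labelled knockout, against 6894 and 6416 in those labelled WT (1.55-fold, log2 fold change 0.63, SE 0.05, adjusted p = 1.73e-04 by limma). Stt3b, which acts on sites that were skipped, had 7759 and 7156 in the libraries labelled knockout, against 4551 and 4780 in those labelled WT (1.60-fold, log2 fold change 0.68, SE 0.06, adjusted p = 2.64e-04 by limma). Per kilobase their means were also close, at 1753 for Stt3a and 1767 for Stt3b in the libraries labelled knockout and 1134 and 1105 in those labelled WT.

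Of the shared subunits, Ddost, Rpn1 and Rpn2 rose by smaller amounts and Dad1 fell. Ddost had 16727 and 16862 in the libraries labelled knockout, against 13734 and 13107 in those labelled WT (1.25-fold, log2 fold change 0.32, SE 0.04, adjusted p = 0.00112 by limma). After median centring Ddost was at 0.02 and did not pass. Rpn1 had 9686 and 10298 in the libraries labelled knockout, against 8319 and 7964 in those labelled WT (1.23-fold, log2 fold change 0.30, SE 0.05, adjusted p = 0.00447 by limma), and was at -0.0053 after median centring. Rpn2 rose by 0.25 and was at -0.05 after median centring. Dad1 (chr14:54235479-54254104, minus strand, GRCm38), a shared subunit named as a defender against cell death, had 24052 and 23465 in the libraries labelled knockout, against 28459 and 29568 in those labelled WT. It fell to 0.819 of the WT-labelled level (log2 fold change -0.29, SE 0.03, adjusted p = 0.00125 by limma) and was the most abundant gene of the list per kilobase, at 27060 in the libraries labelled knockout and 33045 in those labelled WT. Ostc, a subunit of the Stt3a complex, was not called (-0.09), but was called lower with median centring (-0.39) and with upper-quartile scaling (-0.18).

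Subunits of the same enzyme outside the list were as uneven, with 3 called and Tmem258 not called. Tmem258 had 7375 and 7151 in the libraries labelled knockout, against 7416 and 10403 in those labelled WT (log2 fold change -0.27). With median centring Tmem258 was called lower, at -0.57. The 3 that were called went both ways. Magt1, an oxidoreductase subunit of the Stt3b complex, had 4051 and 4154 in the libraries labelled knockout, against 2042 and 2252 in those labelled WT (1.91-fold, log2 fold change 0.94, adjusted p = 1.30e-04 by limma). Its paralog Tusc3 fell, with 1402 and 1462 in the libraries labelled knockout, against 1838 and 1687 in those labelled WT (log2 fold change -0.30, adjusted p = 0.0259 by limma). Krtcap2, a subunit of the Stt3a complex, fell by 0.38 on the log2 scale. Each of these 3 kept its sign on all 5 scalings, but Tusc3 did not pass without WT replicate 1 or without either library labelled knockout.

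Coding length went with part of this pattern. The 5 members with a coding sequence under 450 bases, Sec61b, Sec61g, Spcs1, Dad1 and Ostc, included none that rose and 1 that fell, with a median log2 fold change of -0.10, beside -0.14 for all 1015 tested coding genes of that length. Of all tested genes, whatever their length, 19.9% were called higher and 13.4% lower. Of the 14 members with 450 to 900 bases 11 rose, of the 14 with 900 to 1800 bases 11 rose, and of the 14 with 1800 to 3600 bases all 14 rose. Their medians were 0.36, 0.37 and 0.42, against 0.00, 0.06 and 0.08 for all tested coding genes in the same ranges. Across the 47 genes Spearman's rho between coding length and log2 fold change was 0.354, and across the 13251 tested coding genes 0.112. These are descriptions over genes of the same 4 libraries, and the length ranges were set after the values had been seen. The part of length in the results was not tested.

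**Figure D4:**
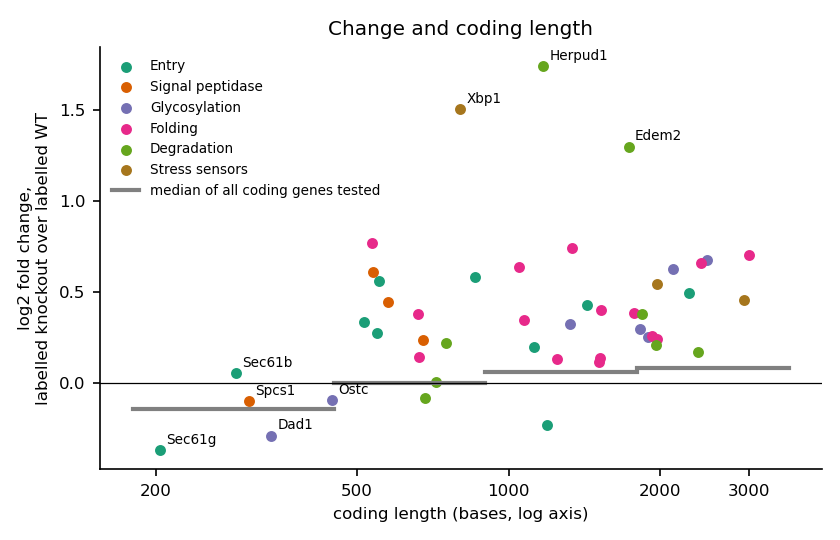
Log2 fold change (y axis, libraries labelled knockout over libraries labelled WT) of the 47 ER genes against coding length in bases (x axis, log scale), coloured by role, with grey bars at the median of all tested coding genes in each length range. The 5 shortest members lie at or below 0.06, around the grey bar at -0.14, while members of the longer ranges lie mostly above their bars.

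Genes of the same pathways outside the list had a lower median. Of 118 listed, 117 were in the table and tested: 45 were higher and 14 lower, beside 19.9% and 13.4% of all tested genes, with a median log2 fold change of 0.13. With median centring the split was 22 higher and 55 lower, beside 13.0% and 39.2% of all tested genes and 10.4% and 67.2% of the abundant ones. With upper-quartile scaling it was 38 higher and 22 lower, beside 17.7% and 19.9%. The folding group held 15 of the rises among 24 genes (10 higher and 7 lower with median centring). Txndc5, a disulfide isomerase abundant in secretory cells, had normalized counts of 11413 and 11332 in the libraries labelled knockout, against 4112 and 3642 in those labelled WT (2.93-fold, log2 fold change 1.55, adjusted p = 1.24e-05 by limma). Cnpy3, a co-chaperone that works with Hsp90b1 on Toll-like receptors, had 5955 and 5862 in the libraries labelled knockout, against 2380 and 2066 in those labelled WT (2.66-fold, log2 fold change 1.41, adjusted p = 3.81e-05 by limma). Of the 3 that fell in this group, Dnajc1, a membrane DnaJ protein, and Ppib, a prolyl isomerase, were at -0.31 and -0.19. Named after its values had been seen, Pdia5, another isomerase, had 463 and 550 in the libraries labelled knockout, against 62.1 and 24.5 in those labelled WT, and rose (log2 fold change 3.66).

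The other groups were mixed or mostly uncalled. For the signal recognition particle and its receptor, which bring ribosomes to the ER, 1 of 8 rose (Srprb, 0.38) and 1 fell (Srp9, -0.19), no more than the shares of all tested genes. Srp9 did not pass with no filter, nor without WT replicate 2 or either library labelled knockout, and with median centring none of the 8 was higher and 7 were lower. Other entry genes had 5 rises and 1 fall among 16. The rises with the smallest adjusted p were those of Emc3, a membrane protein insertase subunit (0.70), and Tram2, a relative of Tram1 (0.82). Other glycosylation genes had 4 rises and 3 falls among 12. Other degradation genes had 5 rises and 4 falls among 17, with Man1b1, a mannose-trimming enzyme, at 0.70, and Ngly1, the cytosolic enzyme that removes N-linked sugars, at -0.34. Of 25 coatomer and COPII genes, which carry cargo between ER and Golgi, 10 rose and none fell, with Sec24d at 0.95 and the cargo receptor Tmed10 at 0.50, but with median centring 2 were higher and 13 lower. Median centring gave 3 higher and 9 lower for the other entry genes, 2 and 5 for glycosylation, and 1 and 7 for degradation. The shares of all tested genes were 19.9% higher and 13.4% lower, and 13.0% and 39.2% with median centring.

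Among 15 other sensors and genes of the PERK arm 5 rose and 2 fell, beside 19.9% and 13.4% of all tested genes. Median centring gave 4 higher and 7 lower, beside 13.0% and 39.2%. Atf6b, the paralog of Atf6, had normalized counts of 7600 and 8180 in the libraries labelled knockout, against 4288 and 4117 in those labelled WT (1.88-fold, log2 fold change 0.91, adjusted p = 5.93e-05 by limma), and Creb3, another membrane-bound factor, rose by 0.64. Ddit3, the stress factor CHOP, had 1341 and 1517 in the libraries labelled knockout, against 1716 and 1752 in those labelled WT (log2 fold change -0.28, adjusted p = 0.0425 by limma). Ppp1r15a, which restores translation after PERK, fell by 0.19 on the log2 scale. Ddit3 did not pass with no filter, nor without knockout-labelled replicate 1 or WT replicate 2, and Ppp1r15a did not pass without either library labelled knockout. Named after their values had been seen, Eif2ak3 (PERK itself), Atf4 and Trib3 were not called, at 0.02, -0.08 and 0.27, while Chac1, a glutathione-degrading enzyme and ATF4 target, had 72.5 and 90.5 in the libraries labelled knockout, against 35.6 and 27.6 in those labelled WT, and rose (log2 fold change 1.34).

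Few chaperones of the cytosol rose. Of 24 tested, 1 was higher and 5 were lower, beside 21.8% and 24.1% of the abundant genes, with a median log2 fold change of -0.05, and they took 0.853% and 0.864% of reads in the libraries labelled knockout, against 0.905% and 0.866% in those labelled WT. With median centring none was higher and 21 were lower, beside 10.4% and 67.2% of the abundant genes, and with upper-quartile scaling 1 was higher and 12 were lower, beside 17.7% and 19.9% of all tested genes. Hspa8, the constitutive HSC70, had normalized counts of 149804 and 149877 in the libraries labelled knockout, against 185331 and 180315 in those labelled WT (log2 fold change -0.29, adjusted p = 2.57e-04 by limma). Dnaja1, a cofactor of HSC70, fell by 0.28 on the log2 scale, and Dnajb1, Bag3 and Cct7 were the other 3 that fell. Hsp90aa1, an inducible HSP90, rose by 0.19 and was at -0.11 after median centring. A difference between this list and the ER list was not tested.

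**Figure D5:**
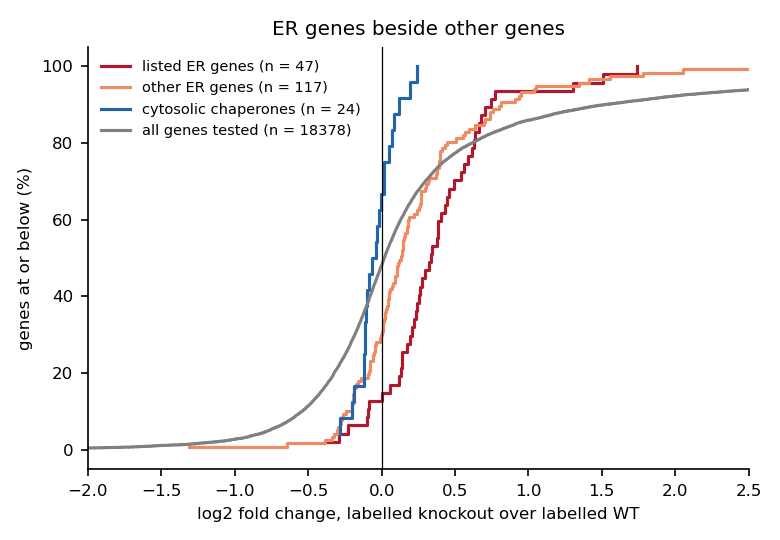
Cumulative share of genes (y axis) by log2 fold change, libraries labelled knockout over libraries labelled WT (x axis, cropped), for the 47 ER genes, the 117 other ER genes, the 24 cytosolic chaperones and all tested genes. The medians are 0.33, 0.13, -0.05 and 0.02.

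The authors' deposited table, computed on the same 4 libraries, held 35 of the 47 genes higher in the knockout columns and 1 lower at an adjusted p under 0.05. All 36 were also called here in the same direction, and the gene called here but not there was Sel1l. The shares of all genes called in the authors' table are not given here. DESeq2 run here on the recovered reads called 19.0% of all tested genes higher and 13.9% lower.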

How the data were processed

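PolyA RNA libraries of CD8+ T cells, 2 labelled Irf8 knockout and 2 labelled WT, were given in the authors' deposited table as normalized counts (a signal scaled by size factors). The submitters' processing notes name the build mm10 and the tools HISAT2 2.2.1, StringTie 2.1.4, DESeq2 and Trim Galore 0.4.4. How reads shared between near-identical copies were assigned is not stated there. The deposited log2 fold changes (WT over knockout), their test score and their p-values come from the authors. Multiplying by a size factor per library gave whole reads for 100% of values (tolerance 0.01).

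Here log2(value + 1) was tested with limma 3.58.1 (R 4.3.3, robust, trended variance) on the 18378 genes with at least 10 in at least 2 libraries, with Benjamini-Hochberg adjustment over all of them. The added 1 understates fold changes of low genes. Counting error is small at this depth, so the libraries' number limits precision. Exact permutation of 2 against 2 libraries cannot pass the threshold. Run on the recovered reads, edgeR 4.0.16 with TMM called 3691 genes higher and 2652 lower. In data simulated from these libraries, false calls were more frequent than the threshold of 0.05 aims for.

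Same-numbered libraries did not deviate together, so they were not paired. All members are accounted for; values are printed for Hspa5, Xbp1, Ern1 and Atf6, for up to 4 rises and 3 falls per role, and for up to 2 rises and 2 falls per role of the other lists; others were added after their values were seen. Members and lists were chosen with earlier results of these data known. Coordinates and lengths are from GENCODE M21 (GRCm38). The table holds 24 names in the form of dates, and 1 listed gene, March6, was not matched.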

Additional observations from a re-analysis of the deposited data

How the results depend on the processing

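Of 47 ER genes, 15 were called higher in all 14 alternatives. Median centring gave 2389 genes higher and 7210 lower among all genes, 15 and 9 of the ER genes (median 0.034), 22 and 55 of the other ER genes and 0 and 21 of the cytosolic chaperones. The 15 ER genes higher with median centring were those same 15, and it called 13.0% of all tested genes higher. Upper-quartile scaling gave 3 ER genes lower (median 0.25), 22 other ER genes lower and 12 cytosolic chaperones lower. Leaving out each library in turn, with the lone library assumed to vary like the other group, gave 2195 to 4193 genes higher and 1540 to 2818 lower; for the ER genes 30 to 39 higher and 1 to 4 lower, for the other ER genes 34 to 51 higher and 6 to 18 lower, and for the cytosolic chaperones 0 to 1 higher and 2 to 6 lower. Without WT replicate 1, Sec61g (-0.78), Sec62 (-0.44) and Spcs1 (-0.16) were called lower; without WT replicate 2, Sec61b (0.15), Dnajc3 (0.19) and Calr (0.20) were called higher. Calls were lost without knockout-labelled replicate 1 for Tram1 (0.15), Pdia3 (0.14), Edem1 (0.16), Sel1l (0.20), Derl1 (0.23), Srp9 (-0.19), Tusc3 (-0.27), Ppib (-0.14), Ppp1r15a (-0.18), Ddit3 (-0.19) and Hsp90aa1 (0.18), without knockout-labelled replicate 2 for Ssr2 (0.25), Spcs2 (0.21), Pdia3 (0.14), Pdia4 (0.21), Sel1l (0.14), Derl1 (0.21), Srp9 (-0.20), Tusc3 (-0.33) and Ppp1r15a (-0.20), without WT replicate 1 for Edem1 (0.15), Sel1l (0.16) and Tusc3 (-0.24), and without WT replicate 2 for Srp9 (-0.14) and Ddit3 (-0.27). The share ratio was 1.29 outside the 10 most abundant genes.

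Signs turned with median centring for Sec61b (-0.24), Tram1 (-0.10), Ssr2 (-0.026), Spcs2 (-0.064), Rpn1 (-0.0053), Rpn2 (-0.046), Hspa5 (-0.0595), Dnajb9 (-0.16), Dnajc3 (-0.18), Calr (-0.17), Pdia3 (-0.16), Pdia4 (-0.0395), Edem1 (-0.0915), Sel1l (-0.13), Derl1 (-0.0797), Derl2 (-0.29) and Hsp90aa1 (-0.11). Derl2 also turned with TMM (-0.0007), upper quartile (-0.073) and DESeq2 (-0.0021), and Sec61b with upper quartile (-0.0266). Leaving out each library in turn gave -0.0356 to 0.15 for Sec61b, -0.78 to 0.049 for Sec61g, -0.0563 to 0.0682 for Derl2 and -0.20 to 0.0392 for Derl3, so these signs rest on single libraries. Beyond the scalings' own shift of zero, the cause was not tested.

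The replicate block gave 34 ER genes higher and 1 lower (Edem1 and Sel1l no longer passed), 42 other ER genes higher and 12 lower (Srp9 and Ddit3 no longer passed), 3415 and 2168 of all genes and 3 cytosolic chaperones lower; the correlation of same-numbered deviations was 0.017, so the libraries share only a number. Chi-square per degree of freedom between the libraries of a group was 6.45 in the pair labelled knockout and 21.7 in the pair labelled WT, so neither pair agreed within counting error.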
